A study of Mus musculus with 5 samples.

Results

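Histone modifiers and chromatin remodellers were examined in sorted mouse haematopoietic stem and progenitor cells (HSPCs), the rare marrow cells from which blood is made. The set holds every gene of the RNA-seq table whose symbol begins with Kdm, Kmt, Setd, Hdac, Kat, Brd, Chd, Arid, Dnmt or Tet and a digit, or with Smarc. Of 11352 listed genes 93 matched, and 89 remained after 4 family members were set aside by name. Of the 89, 88 are annotated as protein coding. One is the pseudogene Smarca5-ps. Chd3os is an older symbol of Rnf227, which lies beside Chd3 on chromosome 11 and does not encode a CHD protein.

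The comparison had 2 groups. In 2 libraries Cux1, a homeodomain transcription factor gene, was knocked down (Cux1-low). In the other 3 the mice carried the Cux1 knockdown together with NrasG12D, an activated allele of a RAS GTPase gene (Cux1-low;NrasG12D, called NrasG12D from here on). All mice had been given pI:C (an RNA mimic that triggers an interferon response) and doxycycline over 4 weeks, and Lineage-/KIT+/SCA1+/CD135- cells were sorted. Neither a Cre driver, the promoter of the knockdown nor an age is in the labels, and nothing ties a library to an animal of its own. P-values therefore measure the spread between these samples, which may be technical. Since both groups carry the knockdown, the values describe what accompanied NrasG12D in cells with low Cux1.

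Chromatin regulators set how tightly DNA is wound on histones and which stretches can be read. Methyltransferases, acetyltransferases and DNA methyltransferases write chemical marks, demethylases, deacetylases and TET dioxygenases remove them, bromodomain proteins read acetylated lysines, and SWI/SNF and CHD ATPases slide or evict nucleosomes. Genes of these families, among them Dnmt3a, Tet2, Kmt2a and Arid1a, regulate self-renewal of blood stem cells and are often altered in myeloid leukaemia.

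The SWI/SNF complex is powered by either of a pair of ATPases, SMARCA2 (BRM) and SMARCA4 (BRG1), and their genes had log2 fold changes of opposite sign. The monomethyltransferase gene Setd8 (now Kmt5a) had the smallest p among the 89. The sequence before the start of these 3 genes is shown because the results turn on the contrast of the ATPase pair and on Setd8. Sequences are from RefSeq (GRCm38.p6), 5′ to 3′ on the plus strand. They end at the first start annotated by RefSeq or GENCODE, and capitals mark matches on either strand to the motifs named after them.
Setd8, chr5:124439680-124439929: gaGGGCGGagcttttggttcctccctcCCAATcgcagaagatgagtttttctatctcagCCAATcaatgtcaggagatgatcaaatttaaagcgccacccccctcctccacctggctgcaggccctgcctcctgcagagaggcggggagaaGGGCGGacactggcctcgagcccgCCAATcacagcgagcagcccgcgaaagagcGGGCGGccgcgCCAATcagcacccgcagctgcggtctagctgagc
Smarca2, chr19:26604910-26605049: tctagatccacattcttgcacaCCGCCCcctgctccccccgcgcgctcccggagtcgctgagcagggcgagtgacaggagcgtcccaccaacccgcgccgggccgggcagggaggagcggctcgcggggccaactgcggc
Smarca4, chr9:21615919-21616168: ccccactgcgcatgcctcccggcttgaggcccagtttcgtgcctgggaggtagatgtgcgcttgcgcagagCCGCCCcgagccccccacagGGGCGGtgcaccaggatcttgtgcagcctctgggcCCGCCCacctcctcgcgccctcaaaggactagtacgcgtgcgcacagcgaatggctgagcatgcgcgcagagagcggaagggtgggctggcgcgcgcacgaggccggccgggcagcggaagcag
Both strands were searched for CCAAT (the box from which CUX1 took its older name, CCAAT displacement protein), ATCGAT (bound by CUX1), TTTGGCGC and TTTCCCGC (E2F), CCGGAAG (ETS), CACGTG (E box) and GGGCGG (GC box). No motif overlapped another in these windows. Setd8 held CCAAT at 223, 191, 75 and 34 bases before the start, and 33.8% of 32817 RefSeq promoter windows of 250 bases held at least 1. GGGCGG was found 3 times before Setd8, 3 times before Smarca4 and once before Smarca2. It was held by 32.7% of all windows of 250 bases and by 15.3% of windows of 140 bases, the length shown for Smarca2. Neither the ATCGAT, E2F, ETS nor E box letters were in these 3 windows. They were held by 0.728%, 0.417% (TTTGGCGC), 0.893% (TTTCCCGC), 6.90% and 6.02% of all windows of 250 bases, and by 0.466%, 0.213%, 0.442%, 2.28% and 2.64% of those of 140. These matches are letters in a window, and binding was not measured.

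The libraries held 16489711 to 20262498 reads over the listed genes, so 1 read was worth 0.0481 to 0.0608 normalized CPM, the unit of the deposited values (reads relative to library size after a composition scaling). The least covered member, Hdac11, still rested on 47 reads or more in every library, and all 89 were above 1 in all 5 libraries. NrasG12D library 3 stood apart: of 20 members that differed by at least 0.5 in log2 between Cux1-low and NrasG12D libraries 1 and 2, it lay between them for 19. In the whole table it did so for 2934 of 3507 such genes. For the members its median position was 0.418 of the way from Cux1-low (0) to libraries 1 and 2 (1), against 0.394 over the 3507 genes. All 9 stem and progenitor markers, including Kit, Cd34 and Ptprc, were detected in every library, which does not test how pure the sort was. For Ly6a, which encodes SCA1, normalized CPM were 44.7 and 48.7 (Cux1-low) and 24.2, 14.2 and 37.7 (NrasG12D). Mpo, of the granulocyte and monocyte genes (6253 to 16350), and the erythroid gene Car2 (2318 to 4676) exceeded each of the 9 markers in every library. The summed level of these 9 markers was 3826 and 3939 normalized CPM in Cux1-low and 1740, 1482 and 2750 in NrasG12D, with all 9 lower. All 12 proliferation genes were higher (sum 4295 and 3911 against 5648, 6503 and 4896), as were all 10 erythroid genes found of 12 (4919 and 5384 against 8627, 12040 and 6094). The 8 B cell genes found of 9 (without Pax5) summed to 58.1 and 79.4 against 268.6, 550.8 and 60.5. Of these sums Cd79b alone gave 48.1 and 51.4 against 62.1, 79.3 and 39.4. Granulocyte and monocyte genes (8 of 10) spanned 7544 to 10670 in Cux1-low and 8179 to 19590 in NrasG12D, and megakaryocyte genes 804.4 to 826.2 and 471.9 to 838.1. Dendritic genes (4 of 5) spanned 521.7 to 789.5 and 201.9 to 323.7, endothelial genes (3 of 4, without Cdh5) 149 to 150 and 92.4 to 118, and T and NK cell genes (2 of 7, without the CD3 genes) 225.3 to 245.3 and 177 to 325.8. The part of these shifts in the values below was not tested, and in bulk RNA fewer cells of a type and less RNA per cell cannot be told apart.

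With all 5 libraries, no chromatin gene passed the test: 0 of 89 had an adjusted p under 0.05 (limma on log2(normalized CPM + 1), Benjamini-Hochberg over 11352 genes), where 1.13% of all genes did (0.255% higher and 0.872% lower). At an unadjusted p under 0.05 there were 19, 7 higher and 12 lower, or 21.3% of the set beside 31.4% of all genes (14.8% higher and 16.5% lower). The authors' deposited table calls 6, Setd8 higher and Hdac11, Arid5a, Smarca2, Arid3b and Smarcd1 lower, or 6.74% of the set. It calls 16.1% of all genes, 6.97% higher and 9.14% lower. Fold changes were small: the median size, whatever the sign, was 0.20 in log2 beside 0.27 over all genes, and 8 members (8.99%) exceeded 0.5 beside 22.4% of all genes. The signed median was -0.05, beside 0.00 over all genes, with 40 positive and 49 negative.

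Library 3 was seen to stand apart in these same values, so passing in a fit without it is not separate support. Leaving out NrasG12D library 1 or 2 called 0 chromatin genes, with 3 and 22 called over all genes. Without NrasG12D library 3, 24 of the 89 passed, 8 higher and 16 lower. That is 27.0% of the set, where 37.4% of all genes passed in the same fit (18.0% higher and 19.4% lower). Those that rose were Setd8, Setd1a, Setd6, Kmt2b, Kdm8, Brd7, Smarca4 and Smarcb1. Those that fell were Kdm5b, Kdm4b, Kdm3a, Hdac11, Hdac6, Smarca2, Smarcd1, Arid1b, Smarcad1, Arid5a, Arid3b, Chd9, Chd2, Tet1, Dnmt3a and Dnmt3b. All 24 had the same sign with all 5 libraries, which include the libraries of this fit, so the shared sign is not separate support. By role group the share that passed in that fit ran from 0% of 7 acetyltransferase genes to 50% of 6 DNA methylation genes, and the counts given below for each group and partner list without library 3 are to be read against the 37.4% of all genes. For 41 members (46.1%, beside 53.5% of all genes) the groups did not overlap, 21 with all NrasG12D libraries higher (26.5% of all genes) and 20 with all lower (27.0%).

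**Figure D1:**
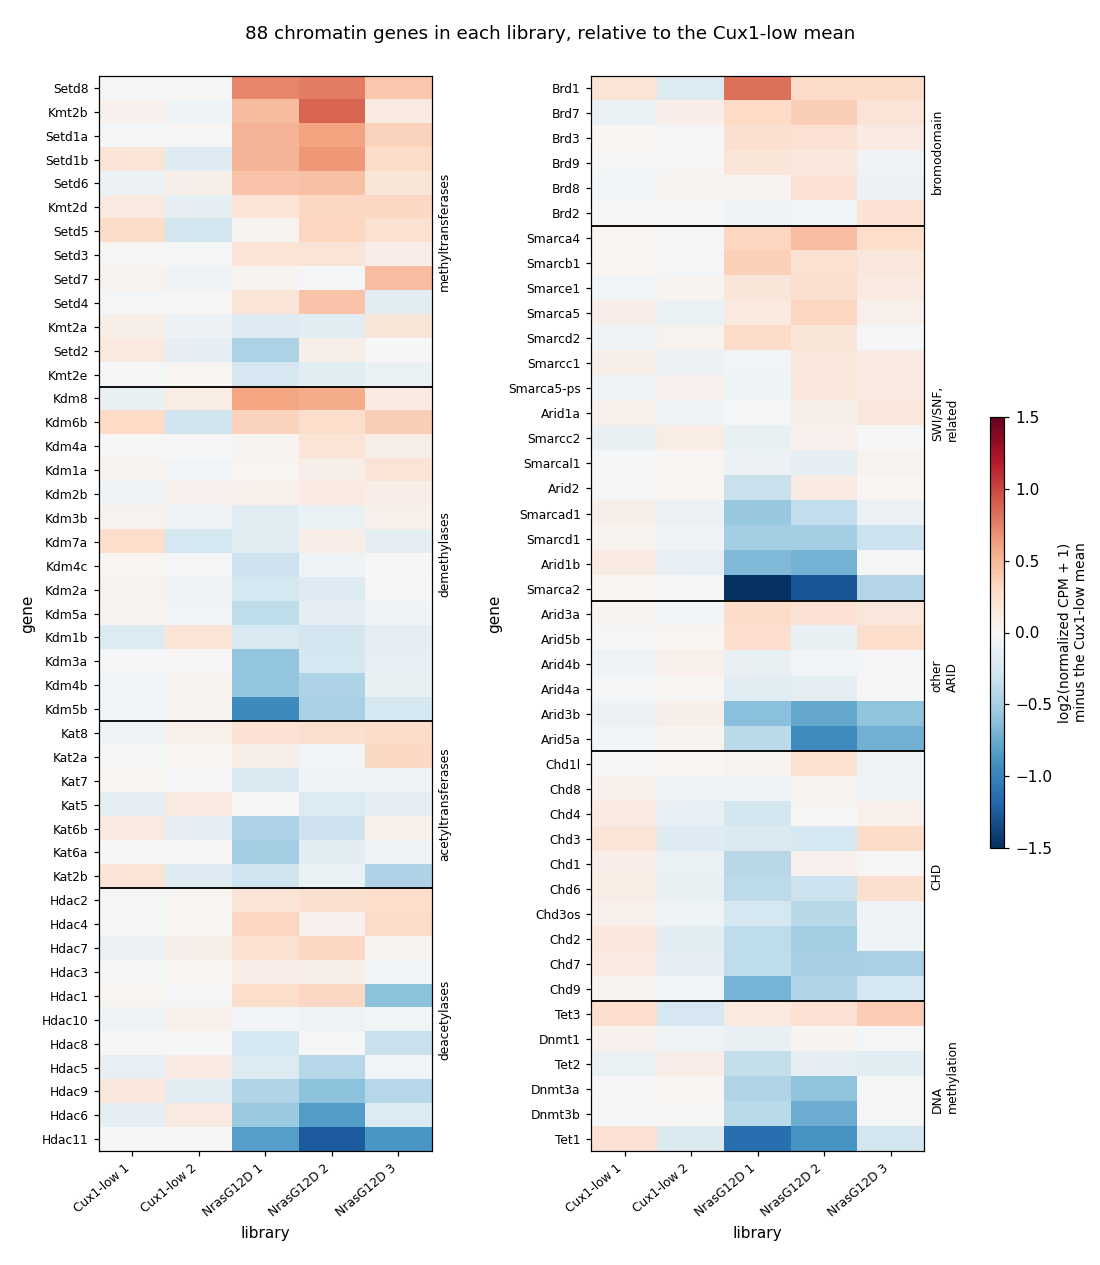
Each cell shows log2(normalized CPM + 1) of 1 of 88 chromatin genes (row) in 1 library (column) minus the Cux1-low mean, with lines between role groups and genes ordered by fold change. Smarca2, Hdac11 and Tet1 are darkest in NrasG12D libraries 1 and 2, and library 3 is paler in most rows that differ.

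**Figure D2:**
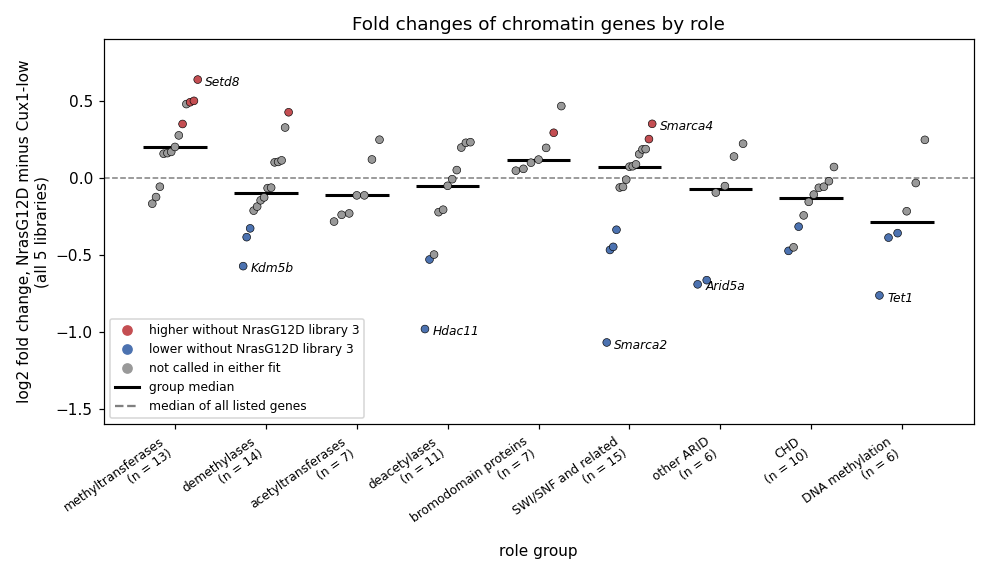
Each point is the log2 fold change (NrasG12D minus Cux1-low, all 5 libraries) of 1 gene by role group, with group medians as bars and the median of all listed genes dashed. Colours mark the 8 genes called higher and 16 called lower without NrasG12D library 3. Group medians run from -0.29 (DNA methylation) to 0.20 (methyltransferases), and the CHD and SWI/SNF columns include Chd3os and Smarca5-ps.

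Of 13 histone methyltransferase genes 10 had a positive sign (median 0.20). Without library 3, 4 rose and none fell, or 30.8% of the group beside 37.4% of all genes. Setd8 encodes the enzyme that places a single methyl group on lysine 20 of histone H4 and is needed for mitotic chromosome compaction. It lies on chromosome 5 (124439930 to 124462308, plus strand, GENCODE M21 on mm10). Setd8 was at 146 and 150 in Cux1-low, and 248, 254 and 196 in NrasG12D. All 3 NrasG12D libraries lay above both Cux1-low libraries, with library 3 the lowest of them. In log2 the difference was 0.64 (SE 0.14), with a limma adjusted p = 0.0636, and 0.75 without library 3 (limma adjusted p = 0.00241). The proliferation genes, also higher in all 3 NrasG12D libraries, moved with it, and their part in it was not tested.

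Setd1a and Setd1b encode the catalytic subunits of the SET1 complexes, which methylate lysine 4 of histone H3 at active promoters. Setd1a was at 8.68 and 8.91 against 12.98, 13.9 and 11.48 (log2 fold change 0.49, SE 0.17, limma adjusted p = 0.118). Of its exon bases 52.3% are shared with other genes, one of them on the opposite strand, so how reads divide there is uncertain. Setd1b was at 9.56 and 7.03 against 12.1, 13.4 and 10.1, which did not overlap either (log2 fold change 0.48, limma adjusted p = 0.172).

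The MLL family genes, which encode lysine 4 methyltransferases of promoters and enhancers, differed among themselves. Kmt2b was at 23.9 and 21.8 against 32.1, 42.7 and 25.2 (log2 fold change 0.50, limma adjusted p = 0.178). Kmt2d was at 139 and 115 against 146, 157 and 157 (log2 fold change 0.27, limma adjusted p = 0.164), with library 3 as high as library 2. Kmt2a, the gene broken in MLL-rearranged leukaemia, was at 103 and 91.1 against 84.4, 86.4 and 110, so its groups overlapped (95% interval of the log2 fold change -0.41 to 0.29). Setd2, which encodes the lysine 36 methyltransferase that acts in gene bodies, overlapped as well, at 96.5 and 78.1 against 62.3, 92.3 and 87.4. Setd6, a lysine methyltransferase of the NF-κB subunit RELA, was at 44.5 and 50.8 against 64.3, 64.6 and 54.1 (log2 fold change 0.35, limma adjusted p = 0.14). The most negative log2 fold change of the 13 was -0.17.

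Of 14 histone demethylase genes, 9 were negative and 5 positive (median -0.10), and without library 3 3 fell and 1 rose (28.6% of the group). Kdm5b, a demethylase of lysine 4, was at 187 and 199 against 98.7, 137 and 160 normalized CPM. The 3 NrasG12D libraries were spread, and the highest, library 3, still lay below both Cux1-low libraries (log2 fold change -0.57, SE 0.20, limma adjusted p = 0.115). Kdm4b, a demethylase of lysine 9, was at 75.6 and 80.5 against 51.9, 56.3 and 71.9 (log2 fold change -0.39, limma adjusted p = 0.152). Kdm3a, also a lysine 9 demethylase, was at 109 and 112 against 72.7, 91.5 and 101 (log2 fold change -0.33, limma adjusted p = 0.189). In these 3 genes library 3 was nearest to Cux1-low.

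Kdm8, a JmjC-domain gene, went the other way, at 20.2 and 23.8 against 33.6, 32.8 and 23.9 (log2 fold change 0.42, limma adjusted p = 0.179). Its library 3 nearly met the higher Cux1-low library. Kdm1a, which encodes the flavin-dependent demethylase LSD1 of blood differentiation, was at 188 and 179 against 187, 195 and 210, an overlap (95% interval -0.14 to 0.34). Kdm6b, a lysine 27 demethylase gene, was low and overlapping, at 6.18 and 3.71 against 6.36, 5.99 and 6.50. Kdm4a was at 49.3 and 49.8 against 51.1, 57.2 and 52.6 and did not overlap (log2 fold change 0.11), while Kdm3b did.

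Of 7 acetyltransferase genes 5 were negative (median -0.12). None passed with or without library 3, and none had an unadjusted p under 0.05. Kat7 (HBO1), which supports acetylation of lysine 14 of histone H3, was at 287 and 275 against 239, 272 and 269. The groups were apart by a narrow margin (log2 fold change -0.12, limma adjusted p = 0.469). Kat6a (MOZ), a regulator of stem cell self-renewal, was at 62.7 and 63.2 against 44.0, 56.0 and 60.7 (log2 fold change -0.24, limma adjusted p = 0.324). Kat8 (MOF), of the lysine 16 complexes, was at 33.5 and 37.3 against 41.3, 42.0 and 43.0, so all 3 NrasG12D libraries were higher (log2 fold change 0.25, limma adjusted p = 0.214). The GCN5 and PCAF genes Kat2a and Kat2b overlapped, with Kat2b between 12.27 and 19.8 in all 5 libraries, and so did Kat6b.

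Of 11 deacetylase genes 7 were negative and 4 positive (median -0.05), and without library 3 2 fell (18.2%). Class IV Hdac11 had the second smallest p of the whole set. Hdac11 (chromosome 6, 91156665 to 91174692, plus strand) encodes an enzyme that removes long fatty acyl groups. It was at 7.70 and 7.80 in Cux1-low, and 3.95, 2.68 and 3.77 in NrasG12D. Library 3 lay between libraries 1 and 2 here, unlike in most members. In log2 the difference was -0.98 (SE 0.22), with a limma adjusted p = 0.0695, and it fell without library 3 (limma adjusted p = 0.0126). The level is low, and 17.9% of its exon bases lie opposite other genes.

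Hdac6, the cytoplasmic tubulin deacetylase gene, was at 61.6 and 73.9 against 45.8, 37.3 and 58.5 (log2 fold change -0.53, limma adjusted p = 0.132). Class IIa Hdac9 was at 10.9 and 8.57 against 6.82, 5.94 and 6.93 (log2 fold change -0.50, limma adjusted p = 0.141). Both were lower in all 3 NrasG12D libraries, while the class I gene Hdac2 was higher in all 3, at 239 and 250 against 280, 288 and 293 (log2 fold change 0.23, SE 0.09, limma adjusted p = 0.148). Hdac2 encodes a catalytic subunit of the NuRD, SIN3 and CoREST corepressors. Its partner Hdac1 was at 54.4 and 52.4 against 64.3, 66.6 and 34.6. Libraries 1 and 2 lay above Cux1-low and library 3 below, and the log2 fold change was -0.01 (95% interval -0.67 to 0.65), or 0.29 without library 3 (limma adjusted p = 0.0703). Hdac3, the NCOR deacetylase gene, overlapped at 177 and 184 against 194, 192 and 176. Per kilobase of exon, Hdac2 stood at 54.6 normalized CPM in Cux1-low and Hdac1 at 15.5.

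All 7 bromodomain genes had a positive sign (median 0.12), but 5 did with columns scaled to equal sums, and 1 rose without library 3 (14.3%). Brd7, a subunit gene of the PBAF form of SWI/SNF, was at 113 and 131 against 151, 158 and 140 (log2 fold change 0.29, limma adjusted p = 0.141). Brd1, a scaffold gene of the HBO1 acetyltransferase complex, was at 61.5 and 45.7 against 94.6, 65.1 and 64.5. Library 1 stood highest (log2 fold change 0.46, limma adjusted p = 0.183). BET genes encode proteins that tie acetylated chromatin to transcription elongation. Of these, Brd3 was at 157 and 150 against 181, 178 and 168, and Brd2 at 337 and 332 against 324, 326 and 390.

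SWI/SNF and related remodellers numbered 15 with the pseudogene Smarca5-ps. The 14 others had 7 positive and 7 negative signs (median 0.03, or -0.04 with equal sums), and without library 3 2 rose and 4 fell (42.9%). The 2 ATPase genes gave the widest contrast. Smarca2 (chromosome 19, 26605050 to 26778322, plus strand) was at 224 and 216 in Cux1-low, and 78.2, 89.6 and 162 in NrasG12D. All 3 were below Cux1-low, with library 3 the highest of them. The difference was -1.07 in log2 (SE 0.29), the largest in size of the 89, with a limma adjusted p = 0.0816, and -1.38 without library 3 (limma adjusted p = 0.00101). Smarca4 (chromosome 9, 21616169 to 21704230, plus strand) was at 344 and 329 against 419, 466 and 404, higher in all 3. For Smarca4 the difference was 0.35 in log2 (SE 0.11), with a limma adjusted p = 0.0946, and 0.39 without library 3 (limma adjusted p = 0.0198). As ratios of normalized CPM, Smarca2 was at 0.653 and 0.656 of Smarca4 in Cux1-low and at 0.1865, 0.192 and 0.401 in NrasG12D. Divided by the merged length of all annotated exons, it was at 0.296 and 0.298 in Cux1-low and at 0.0846, 0.0873 and 0.182 in NrasG12D. That length, 14269 bases for Smarca2 and 6475 for Smarca4, is not that of 1 transcript. The summed stem and progenitor markers, lower in all 3 NrasG12D libraries and least so in library 3, moved with Smarca2, and their part in it was not tested.

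Other subunits divided too. Smarcd1, a BAF60a gene, was at 91.8 and 85.6 against 62.0, 62.0 and 70.5 (log2 fold change -0.45, SE 0.12, limma adjusted p = 0.0794), lower in all 3, and 12.7% of its exon bases lie opposite other genes. Its paralogue Smarcd2, needed for granulocyte development, overlapped at 348 and 373 against 441, 409 and 355. Arid1b, a subunit gene of the BAF form, was at 231 and 194 against 133, 129 and 207, so that library 3 sat within the Cux1-low range (log2 fold change -0.47, limma adjusted p = 0.186). Arid1a overlapped at 121 and 109 against 112, 122 and 129. Named after their values were seen, Smarcb1, a core subunit gene, was at 182 and 174 against 229, 208 and 200 (limma adjusted p = 0.156), and the core subunit genes Smarcc1 and Smarcc2 both overlapped. Smarcad1, a remodeller of heterochromatin, was at 89.4 and 79.0 against 56.6, 65.0 and 79.2.

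Arid5a and Arid3b, which encode DNA or RNA binding ARID proteins outside SWI/SNF, were among the 4 members with the smallest p. Of 6 such ARID genes 4 were negative (median -0.08), and without library 3 2 fell (33.3%). Arid5a, a stabiliser of inflammatory mRNAs, was at 90.5 and 95.2 against 69.9, 47.8 and 55.7 (log2 fold change -0.69, SE 0.17, limma adjusted p = 0.0757). Arid3b was at 17.8 and 20.2 against 12.0, 10.7 and 12.2 (log2 fold change -0.67, SE 0.16, limma adjusted p = 0.0757). In both genes library 3 lay with libraries 1 and 2. Arid3a, a regulator of B cell and stem cell genes, was slightly higher in all 3, at 26.2 and 24.8 against 31.0, 29.7 and 28.9 (log2 fold change 0.22, limma adjusted p = 0.281).

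Of 9 CHD remodeller genes, Chd3os left out, 8 were negative, with a median of -0.11. That median ran from -0.25 to 0.00 when 1 library was left out. Without library 3, 2 fell, or 22.2% of the 9 beside 37.4% of all genes. Chd9 was at 69.1 and 65.4 against 41.0, 48.8 and 55.7, lower in all 3 (log2 fold change -0.47, SE 0.15, limma adjusted p = 0.101). Chd7, mutated in CHARGE syndrome, was at 15.0 and 12.2 against 10.2, 9.30 and 9.42, with library 3 among the others (log2 fold change -0.45, limma adjusted p = 0.139). Chd2 was at 65.6 and 52.6 against 44.9, 40.9 and 56.2, which overlapped, and 19.3% of its exon bases are shared with other genes. Chd4, the NuRD ATPase gene that HSPCs require, overlapped at 195 and 164 against 148, 181 and 189 (95% interval -0.40 to 0.28), and so did Chd3.

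**Figure D3:**
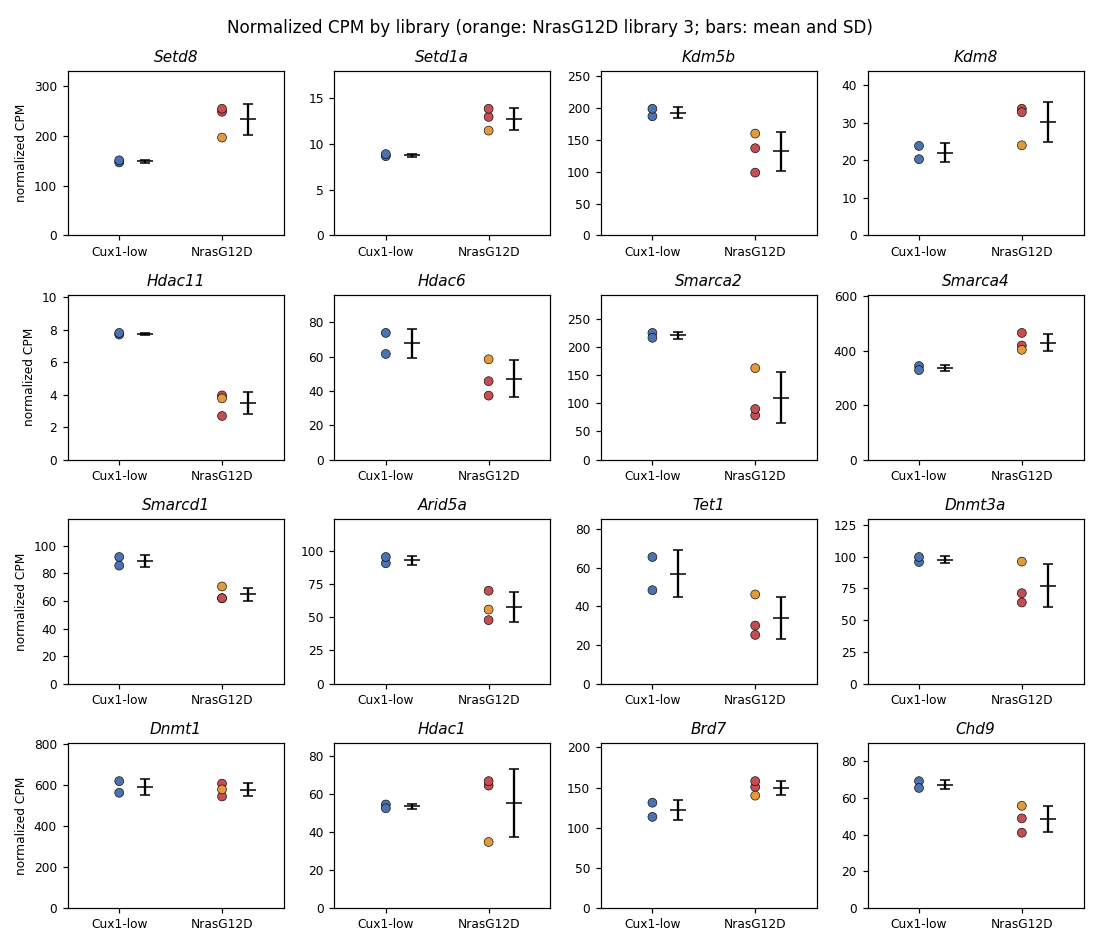
Points are normalized CPM in each library for 16 chromatin genes, with NrasG12D library 3 in orange and mean and SD (n = 2 and n = 3) beside the points. Setd8 and Hdac11 keep all NrasG12D libraries on one side, in Smarca2 and Dnmt3a library 3 lies toward Cux1-low, and Dnmt1 is level.

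Of 6 DNA methylation genes, 5 were negative (median -0.29), and without library 3 3 fell (50%). Dnmt1, the maintenance methyltransferase that copies methylation at replication, was level at 618 and 561 against 543, 606 and 578 normalized CPM. Its log2 fold change was -0.03 (95% interval -0.29 to 0.22, limma adjusted p = 0.843), while all 12 proliferation genes were higher in the same libraries. The de novo methyltransferase gene Dnmt3a, which limits HSC self-renewal, was at 95.8 and 99.8 against 71.3, 64.0 and 96.2. Dnmt3b was at 135 and 137 against 102, 80.6 and 134. For both, libraries 1 and 2 were lower and library 3 sat at the Cux1-low level (log2 fold changes -0.36 and -0.39, limma adjusted p = 0.212 and 0.228), and both fell without it (limma adjusted p = 0.011 and 0.0165).

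Tet1, which encodes a dioxygenase that oxidises methylated cytosine, was at 65.5 and 48.4 against 25.2, 30.1 and 46.2 (log2 fold change -0.76, SE 0.27, limma adjusted p = 0.116). Library 3 nearly met the lower Cux1-low library. Tet2, the TET gene most often mutated in clonal haematopoiesis, was at 44.2 and 51.1 against 36.9, 43.1 and 42.4, a narrow separation (log2 fold change -0.22, limma adjusted p = 0.307). Tet3 overlapped at 81.5 and 57.2 against 75.9, 79.2 and 88.9.

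Ratios of related genes within a library do not depend on scaling, and 17 pairs were compared. The groups did not overlap for 7 of the 17, where for single genes they did not overlap in 53.5% of the whole table. The share over other gene pairs was not computed. The 7 were Smarca2/Smarca4, Ezh1/Ezh2, Smarcd1/Smarcd2, Arid1a/Arid1b, Kdm4a/Kdm4b, Hdac5/Hdac7 and Kdm3a/Kdm3b. The exact permutation test over 5 libraries (2-sided, 10 arrangements) cannot give a p below 0.1. Only Kdm3a/Kdm3b reached it (difference -0.265 in log2), and the smallest value adjusted over the pairs was 0.425. Smarca2/Smarca4 had the largest difference, -1.42 in log2, with an exact permutation p = 0.2. Of the Polycomb pair, Ezh2 encodes the main lysine 27 methyltransferase of dividing cells and Ezh1 its relative in quiescent ones. Ezh1/Ezh2 was at 0.614 and 0.755 in Cux1-low and at 0.260, 0.2501 and 0.496 in NrasG12D, as ratios of normalized CPM (difference -1.09 in log2). Arid1a/Arid1b was at 0.524 and 0.563 against 0.841, 0.944 and 0.624, and Kdm4a/Kdm4b at 0.652 and 0.618 against 0.986, 1.01 and 0.731. In these 4 pairs library 3 lay between Cux1-low and the other NrasG12D libraries. Dnmt3a/Dnmt3b stayed between 0.696 and 0.793 in all 5 libraries, since both genes were lower in libraries 1 and 2.

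**Figure D4:**
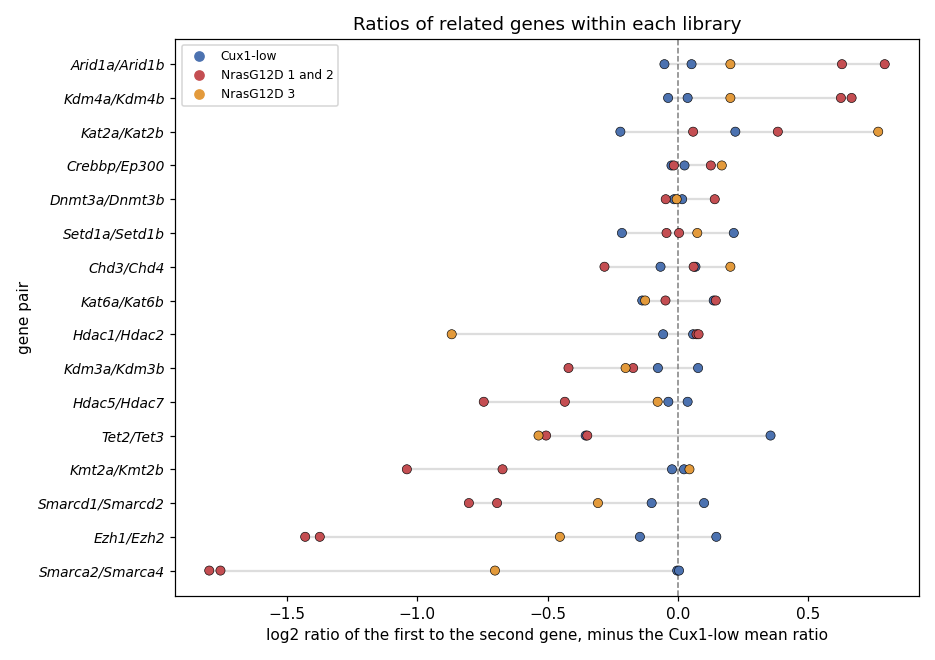
Each row is 1 of 16 gene pairs, and each point the log2 ratio of the pair in 1 library minus the mean Cux1-low ratio. Smarca2/Smarca4 and Ezh1/Ezh2 lie farthest to the left in NrasG12D, with library 3 (orange) between, and Arid1a/Arid1b farthest to the right.

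Partner genes of the same complexes, whose symbols the rule does not match, were taken from 12 lists with 199 genes, of which 195 were in the table. Of these 1 rose and 1 fell (limma adjusted p under 0.05), which is 1.03% beside 1.13% of all genes. Without library 3, 38 rose and 20 fell, or 29.7% beside 37.4%. With all 5 libraries 126 had a positive sign, and the median was 0.09. Supt16, a subunit of the histone chaperone FACT, rose from 82.3 and 65.3 to 233, 307 and 261 normalized CPM (log2 fold change 1.84, SE 0.16, limma adjusted p = 0.0113), and 21% of its exon bases lie opposite another gene. Ing5, a reader of lysine 4 methylation in the HBO1 and MOZ acetyltransferase complexes, fell from 114 and 151 to 64.5, 70.5 and 69.9 (log2 fold change -0.93, SE 0.14, limma adjusted p = 0.043). In both genes library 3 lay with the others. Dropping the Cux1-low library numbered 1, the one numbered 2 or NrasG12D library 1 ended the call of Supt16 (limma adjusted p = 0.112, 0.198 and 0.0791) and of Ing5 (limma adjusted p = 0.252, 0.330 and 0.182), and leaving out NrasG12D library 2 ended that of Ing5 (limma adjusted p = 0.0823).

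All 14 histone chaperone genes had a positive sign, or 12 with equal sums (median 0.37). Without library 3, 7 of them rose, or 50% beside 37.4% of all genes (18.0% higher). Nasp, a carrier of histones, was at 133 and 125 against 202, 211 and 178 (limma adjusted p = 0.0549). The proliferation genes were higher in the same libraries, and their part in this was not tested. Of 24 ISWI, INO80 and other remodeller genes 20 were positive, or 14 with equal sums (median 0.12), with 6 that rose and 1 that fell without library 3 (29.2%). The ISWI partner gene Baz1a was at 90.2 and 94.7 against 144, 156 and 126 (limma adjusted p = 0.059), and the helicase gene Ruvbl2 at 254 and 262 against 377, 345.1 and 312.

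Polycomb lists were mixed. Of 11 PRC2 genes 5 were positive and 6 negative (median -0.02, 2 rose and 2 fell without library 3, or 36.4%). Ezh2 was at 139.7 and 139.5 against 204, 219 and 163 (limma adjusted p = 0.092), Rbbp4 at 497 and 565 against 736, 744 and 681, and Ezh1 at 85.8 and 105 against 53.1, 54.7 and 80.9 (limma adjusted p = 0.109). Of PRC1 and BAP1 genes 14 of 20 were negative (median -0.11, 5 fell without library 3, or 25%), and the chromodomain gene Cbx7, which favours stem cell self-renewal, was at 32.1 and 42.7 against 12.5, 13.4 and 27.95 (limma adjusted p = 0.0977). Cbx6 was at 93.3 and 91.6 against 64.7, 72.4 and 74.3.

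Among 26 HDAC corepressor genes 17 were positive, with a median of 0.11, or 15 with equal sums, with a median of 0.04 (6 rose and 3 fell without library 3, or 34.6%). The zinc finger repressor gene Gfi1, which restrains HSC cycling, was at 50.7 and 64.9 against 34.9, 24.3 and 38.6 (limma adjusted p = 0.0816), and the CoREST gene Rcor2 at 15.1 and 21.4 against 11.2, 9.30 and 12.2. SWI/SNF partners had 9 of 14 positive (median 0.16, or 0.10 with equal sums, 5 rose and 2 fell without library 3, or 50%), among them Actl6a at 253 and 255 against 358, 351 and 304 and Phf10 at 96.6 and 99.7 against 177, 210 and 113. Actl6a is the BAF53a subunit of progenitors, and Phf10 a PBAF subunit.

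COMPASS and menin partners had 11 of 17 positive, or 9 with equal sums (median 0.11, 2 rose and 2 fell without library 3, or 23.5%), with Dpy30 at 81.6 and 90.7 against 135, 134 and 105 and Cxxc1 at 147 and 160 against 194, 198 and 184. Both encode parts of lysine 4 methyltransferase complexes. Of 29 p300/CBP and other acetyltransferase partners 20 were positive, or 15 with equal sums (median 0.07), and 4 rose and 3 fell without library 3 (24.1%). Tada2b, a SAGA-type adaptor gene, was at 7.06 and 6.45 against 23.3, 16.3 and 11.7 (limma adjusted p = 0.0734). Crebbp and Ep300, the CBP and p300 genes, overlapped, with limma adjusted p = 0.91 and 0.823. DNA methylation partners (7 of 9 positive, or 5 with equal sums, median 0.13) included Uhrf1, the recruiter of DNMT1, at 190 and 152 against 215, 272 and 202 and Idh1 at 49.6 and 54.3 against 84.4, 63.7 and 55.2. Of these 9 genes 2 rose without library 3 (22.2%). Methyltransferases of lysines 9 and 36 had a median of 0.01 over 14 genes, or -0.05 with equal sums (2 rose and 1 fell without library 3, or 21.4%), where Suv39h2 was at 16.9 and 18.1 against 25.1, 29.1 and 21.02 and Prdm2 at 46.7 and 36.1 against 30.3, 27.7 and 33.3. BET and elongation partners had 6 of 10 positive (2 rose and 1 fell without library 3, or 30%), with Ell at 81.3 and 87.7 against 69.1, 64.9 and 71.6 and Med1 at 145 and 137 against 91.0, 121 and 114. Of the 7 sirtuins none passed in either fit, and Sirt3 was at 136 and 144 against 128, 97.2 and 115 and Sirt5 at 23.5 and 27.7 against 19.5, 16.3 and 23.03.

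**Figure D5:**
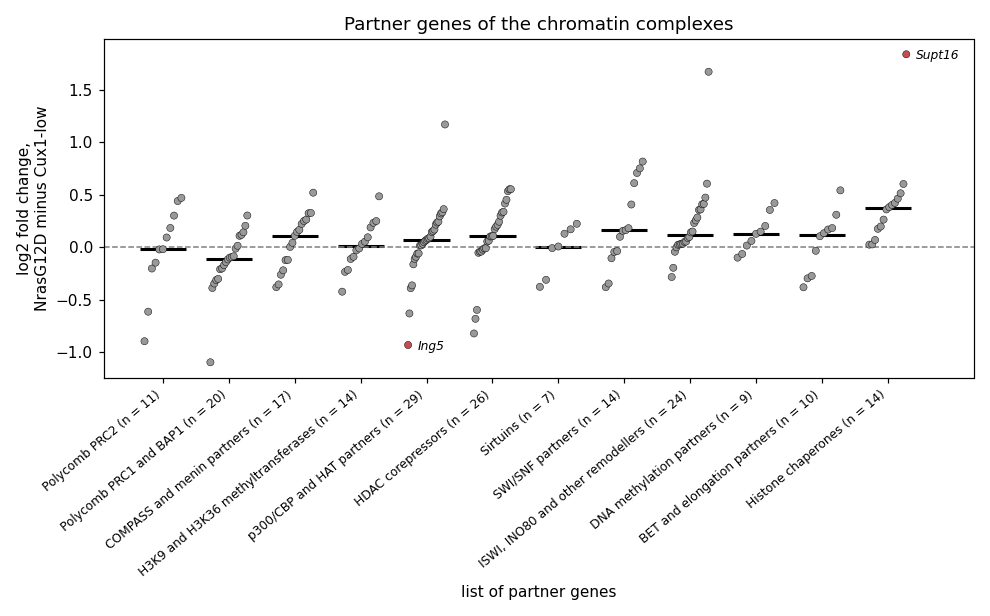
Points are log2 fold changes (NrasG12D minus Cux1-low, all 5 libraries) of partner genes by list, with medians as bars. Supt16 (1.84) and Ing5 (-0.93), in red, passed the test, and the 14 histone chaperone genes all lie above 0 (12 with equal sums).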

How the data were processed

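PolyA RNA of sorted cells was isolated with Trizol and made into Illumina TruSeq v2 libraries, per the labels. The submitters' processing notes name TopHat, HTSeq, edgeR and the builds hg19 and mm10 (the mouse build), with no roles or versions. Per the file headers the deposited values are CPM. Their column sums, 971746 to 1026780, show a composition scaling, so these deposited signal values, read counts that the authors had scaled by library size and composition, are called normalized CPM. All 11352 listed genes were above 1 in at least 3 of the 5 libraries, so genes above 1 in Cux1-low alone are not listed. The authors' deposited log2 fold change, likelihood ratio score and p-value per gene were used only where named. Values were whole multiples of a smallest step (tolerance 0.001 of a step), which gave the reads per library. These recovered reads were not accepted as counts, so a count test was not run.

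Groups were compared with limma 3.58.1 (R 4.3.3, trended variance) on log2(normalized CPM + 1), with 5 libraries in the fit and no block. A minimum of 1 in 2 or more libraries was set and removed 0 genes, and the adjusted p threshold was 0.05 over all genes. Fold changes on this scale understate low genes. Intervals of 95% are limma's. Members, lists and tests were chosen with earlier results of these data known. Genes were named if they were past the threshold, among the 3 smallest p of a role group (2 of a partner list), in a gene pair, or known for a role in blood stem cells. Other names were chosen after their values were seen. One member, with its pair, is counted but not reported by name or drawn by name here. Gene positions and exon lengths (all annotated exons of a gene merged) are GENCODE M21 (87 members matched by symbol and 2 by an older symbol). Of the members 28 share exon bases with a gene on the opposite strand, and no source used here gives the strand setting of the counting. Of partner exon bases, 18.0% in Rbbp4, 15.4% in Ruvbl2, 12.7% in Sirt3, 11.6% in Actl6a and 10.8% in Tada2b lie opposite other genes. RefSeq promoter windows were found for 65 of 89. Other computations used Python 3.11.15, pandas 2.3.3, numpy 2.4.6 and matplotlib 3.10.9. Alternatives were pseudocounts, filters, scalings, variance models, a replicate block and leaving out each library.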

Additional observations from a re-analysis of the deposited data

How the results depend on the processing

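Across 14 alternatives the count of chromatin genes past the threshold was 0 except in 2. Without NrasG12D library 3 it was 8 higher and 16 lower, and over the 5 fits that leave out 1 library it ran from 0 to 8 higher and from 0 to 16 lower. With the replicate number as a replicate block it was also 8 higher and 16 lower. In that fit library 3 has a number of its own, so by construction it adds nothing to the group difference. Deviations of same-numbered libraries from their group means correlated at -0.19 and 0.00. With 2 Cux1-low libraries the deviations of one mirror those of the other, so these values cannot tell whether the numbers pair the samples. Partner genes under the block gave 34 higher and 18 lower, leaving out 1 library gave 0 to 38 higher and 0 to 20 lower, and limma without a trend gave 0 lower. Over all genes the block called 4163 and the fit without library 3 called 4243. Leaving out NrasG12D library 1 or either Cux1-low library left 3 genes, none of them a chromatin or partner gene, and leaving out NrasG12D library 2 left 22. These fits have fewer samples.

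The median of the chromatin genes moved to -0.12 with columns scaled to equal sums, where the median of all genes was -0.07, and ran from -0.05 to 0.024 when 1 library was left out. Medians of role groups then ran from -0.161 to -0.027 for demethylases, -0.147 to -0.036 for deacetylases, -0.132 to -0.02 for other ARID genes and -0.003 to 0.077 for SWI/SNF genes without Smarca5-ps. Filters and variance models leave a gene's fold change as it is. The block gives that of the fit without library 3. Of 55 named members 45 kept their sign under all 14 alternatives, which are thus not 14 separate checks of sign. For the 10 others and for Crebbp and Ep300, which were not called in any fit, leaving out 1 library gave log2 fold changes from -0.004 to 0.147 for Arid1a, -0.042 to 0.091 for Brd2, -0.25 to 0.123 for Chd3, -0.18 to 0.063 for Chd4, -0.104 to 0.035 for Dnmt1, -0.172 to 0.29 for Hdac1, -0.18 to 0.028 for Kmt2a, -0.277 to 0.048 for Setd2, -0.007 to 0.497 for Tet3, -0.123 to 0.155 for Crebbp and -0.207 to 0.087 for Ep300. With equal sums Brd2 was at -0.019, Hdac3 at -0.015 and Crebbp at -0.031. With the block Brd2 was at -0.042, Hdac1 at 0.29 and Crebbp at -0.123. Where library 3 or the scaling is not named, the cause was not tested. With 2 and 3 libraries a group, a gene that was not called is not shown to be unchanged. The printed intervals give the range of differences that the values allow.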

Other observations

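The groups here were chosen after their values were seen. Of 10 genes with HMG symbols, a family of DNA-bending and nucleosome-binding proteins, 8 had a positive sign (median log2 fold change 0.41). Hmga2-ps1, a pseudogene by its symbol, is counted among the 10 and among the 8. Hmgb1, the abundant DNA bender, rose from 47.5 and 44.0 to 107, 109 and 87.4 normalized CPM (log2 fold change 1.12, SE 0.14, limma adjusted p = 0.0327). Dropping either Cux1-low library, NrasG12D library 1 or NrasG12D library 2 ended the call of Hmgb1, with limma adjusted p = 0.335, 0.328, 0.158 and 0.0604. Without NrasG12D library 3, 8 of these 10 rose and none fell, where 37.4% of all genes passed.

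Of 48 core and linker histone genes 41 had a positive sign (median 0.29), and none passed with all 5 libraries by limma, with 13 (27.1%, beside 31.4% of all genes) at an unadjusted p under 0.05 and 7 (14.6% beside 16.1%) in the authors' deposited table. Without library 3, 9 rose and 1 fell, or 20.8% beside 37.4% of all genes. The linker histone gene H1f0, which is linked to cells that leave the cycle, was at 271 and 281 against 188, 195 and 196 (log2 fold change -0.51, SE 0.09, limma adjusted p = 0.0525). The variant gene H2afz was at 40.3 and 42.1 against 68.5, 60.3 and 56.4 (limma adjusted p = 0.07). Replication-dependent histone mRNAs lack a polyA tail, so their levels in polyA libraries are not their cellular levels. Among 8 arginine methyltransferase genes 6 had a positive sign (median 0.14), and without library 3 2 rose and 1 fell (37.5% beside 37.4% of all genes). Prmt1 was at 203 and 237 against 323, 277.3 and 276.9 (limma adjusted p = 0.092) and Carm1 at 140 and 143 against 189, 189 and 165 (limma adjusted p = 0.0951), and both rose without library 3. Prmt6 was lower in all 3 NrasG12D libraries (log2 fold change -0.19, limma adjusted p = 0.27). Prmt2 overlapped at 16.7 and 23.8 against 12.5, 10.2 and 18.5 (log2 fold change -0.55, limma adjusted p = 0.22) and fell without library 3 (limma adjusted p = 0.03).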
